A study of Mus musculus with 7 samples.

Results

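A set of 8 long noncoding RNAs (lncRNAs) known from neural tissue was followed, namely *Malat1*, *Neat1*, *Miat*, *Rmst*, *Sox2ot*, *Pantr1*, *Gas5* and *Snhg11*. They were chosen by name, and a gene was taken where its Ensembl identifier in the count table carried one of these symbols. Of the 8 RNAs, 6 were found among the 38124 genes of the table, and all 6 were among the 16522 genes that passed the filter on low counts. *Rmst* and *Sox2ot*, whose identifiers in the annotation matched no row, were not analysed here, and 1779 identifiers of the table, which was made from an older Ensembl release, could not be matched to a symbol.

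The libraries came from neocortex of heterozygous Tis21-CreERT2 mouse embryos, in which tamoxifen activates Cre recombinase in neurogenic progenitors and their progeny. All embryos received tamoxifen and were electroporated at E13.5 with a plasmid in which Cre turns on nuclear RFP, either alone (Control, 3 libraries, replicates 1, 2 and 4) or together with Sox9 (Sox9, 4 libraries, replicates 1 to 4). Both groups thus carried the Cre driver, and High RFP cells, those with the strongest RFP, were sorted at E15.5, 48 hr later. The sort does not separate progenitors from the young neurons they produced, and cortices of several embryos were pooled per sort according to the methods. Depth differed between the groups. Control libraries had 10465562 to 12907778 counts on genes and Sox9 libraries 4429704 to 10520214, which overlapped only through Sox9 replicate 2.

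LncRNAs are transcripts that are not translated into protein, and many of them stay in the nucleus. *Neat1* is the scaffold of paraspeckles, *Malat1* accumulates in nuclear speckles next to splicing factors, and *Miat* forms nuclear foci of its own in neurons and their progenitors. *Rmst*, *Sox2ot* and *Pantr1* lie at or near genes of neural transcription factors, while *Gas5* and *Snhg11* carry small nucleolar RNAs (snoRNAs) in their introns.

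The annotation (GENCODE, GRCm38) supported this name for most of the set. *Malat1*, *Neat1*, *Miat*, *Rmst* and *Pantr1* were listed as lincRNA and *Gas5* and *Sox2ot* as processed transcript, but *Snhg11* was listed as protein-coding. *Malat1* (chr19:5795690-5802672, reverse strand) and *Neat1* (chr19:5824708-5845478, reverse strand) were neighbours, and in both the longest transcript was a single exon. *Miat* lay at chr5:112213228-112229395 and *Pantr1* at chr1:42590782-42694842, both on the reverse strand. *Gas5* lay at chr1:161034422-161038539 and *Snhg11* at chr2:158375638-158386145, both on the forward strand.

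The 3′ ends of *Malat1* and *Neat1* are shown because the libraries were primed with poly-dT, and these RNAs end without an ordinary poly(A) tail. In both, cleavage by RNase P leaves an end that is held in a triple helix formed by U-rich stretches and an A-rich tract. The windows below end at this tract in the annotated transcripts, and capitals mark stretches of at least 8 bases that both windows share.

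Malat1: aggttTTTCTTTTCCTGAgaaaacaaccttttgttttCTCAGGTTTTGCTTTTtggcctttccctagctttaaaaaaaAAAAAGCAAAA
Neat1 long form: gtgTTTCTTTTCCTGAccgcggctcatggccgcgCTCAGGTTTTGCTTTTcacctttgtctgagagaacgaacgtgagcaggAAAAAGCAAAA
Neat1 short form: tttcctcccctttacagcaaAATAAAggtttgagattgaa

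The *Malat1* window (chr19:5795982-5796070) and the window of the long *Neat1* transcript (chr19:5824708-5824800) shared 3 stretches, of 13, 16 and 11 bases. The *Malat1* tract holds a run of 12 A, whereas the longest run of A anywhere in the 20771 bases of the long *Neat1* transcript was 7. Of 15671 annotated lncRNA transcripts, 4.28% held a run of at least 12 A, and so did 30.5% of the 151 that were at least 5000 bases long, as *Malat1* is. The short *Neat1* transcript ends differently (chr19:5842307-5842346), and the capitals in its last 40 bases mark the polyadenylation signal AATAAA. Counts per gene do not tell the 2 *Neat1* forms apart.

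The next windows come from the last exon of *Miat* and are shown because they hold its hallmark repeat, TACTAAC, which matches the branch point sequence bound by the splicing factor SF1. Capitals mark each copy.

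Miat first window: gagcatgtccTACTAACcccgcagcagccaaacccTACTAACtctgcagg
Miat second window: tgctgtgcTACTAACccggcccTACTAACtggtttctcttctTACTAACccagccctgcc

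The windows lie at chr5:112217311-112217360 and chr5:112216751-112216810 on the reverse strand. The longest *Miat* transcript held 6 copies on its own strand, *Neat1* held 1, and the longest transcripts of the other RNAs of the set held 0. At least 1 copy was found in 3.04% of the annotated lncRNA transcripts, and at least 6 copies in 3 of them. Among the 151 transcripts of at least 5000 bases, 19.2% held at least 1 copy and 2 held at least 6.

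The start of *Gas5* is shown because it marks the class of the gene. Capitals mark the pyrimidine run at which 4 of its 25 annotated transcripts begin, in a window of the RefSeq promoter table (GRCm38, chr1:161035126-161035185, forward strand). Such a run at the 5′ end (5′ TOP) is known from ribosomal protein mRNAs and snoRNA host genes.

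Gas5 start: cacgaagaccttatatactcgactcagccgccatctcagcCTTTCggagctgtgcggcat

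Of the 8 RNAs, 4 matched an entry in the promoter table.

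Among the 6 RNAs, *Neat1* alone passed the test, and it was higher in the libraries labelled Sox9. *Pantr1* had a lower mean in these libraries and missed the threshold by little, and the differences of *Malat1*, *Miat*, *Gas5* and *Snhg11* did not pass either. A gene was called at a Benjamini-Hochberg adjusted p under 0.01 in edgeR's quasi-likelihood test over all genes. This gave 1 RNA higher and 0 lower of 6, compared with 11.3% of all genes tested called higher and 3.43% called lower (14.7% in either direction). For lncRNA genes these shares were 20.5% and 0.78% (21.2% in either direction). At an unadjusted p under 0.05, 1 RNA was higher and 1 lower (26.8% and 17.3% of all genes), and DESeq2 called 1 higher and 1 lower (12.1% and 8.42% of all genes). The groups did not overlap in normalized counts for 1 of the 6, compared with 39.3% of all genes and 46.6% of lncRNA genes tested. The median log2 fold change over the 6 was -0.22, whereas that over all genes was -0.0031. As whole sorted populations were sequenced, fewer cells expressing an RNA and less of that RNA per cell cannot be told apart.

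**Figure D1:**
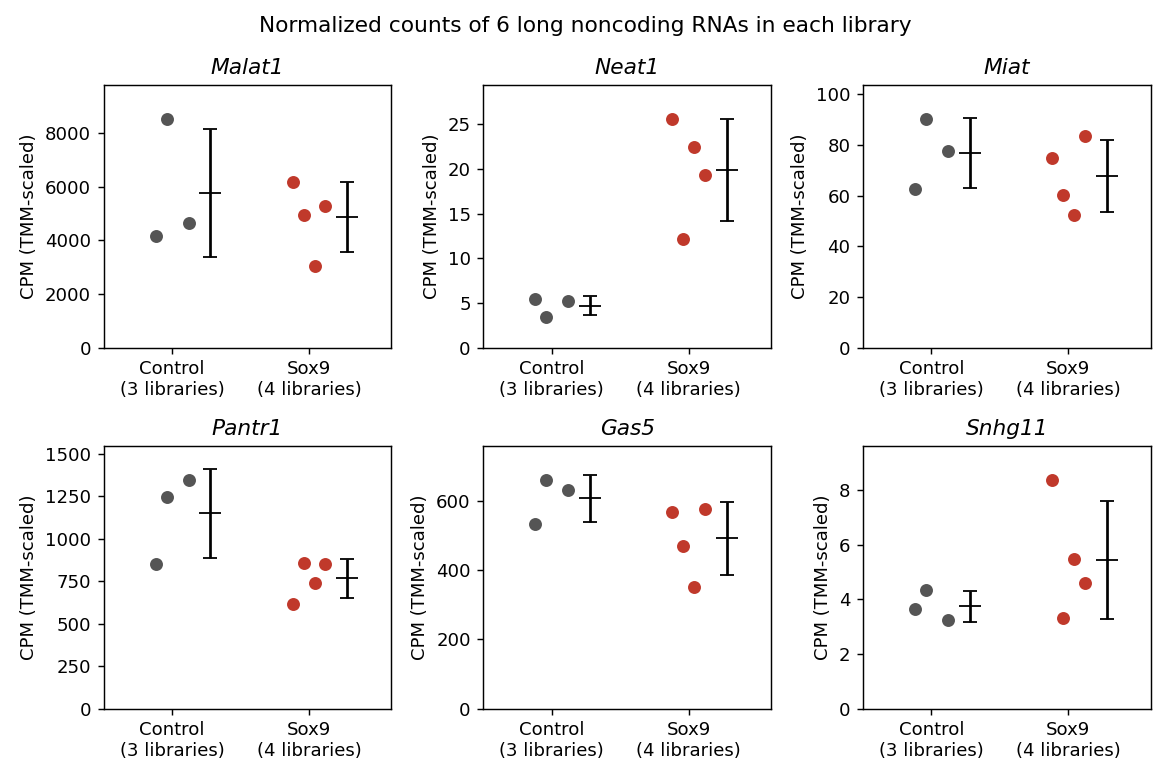
Counts scaled to a common library size by TMM (CPM, linear axes from 0) of each RNA in the 3 Control libraries (grey) and the 4 libraries labelled Sox9 (red), with bars at mean ± SD. The groups are apart for *Neat1*, whose highest Control library was at 5.45 and whose lowest Sox9 library was at 12.2, and overlap for the other 5 RNAs.

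The gene of the construct, *Sox9*, had 34.6 to 89.2 CPM in Control and 31.0 to 50.8 CPM in the libraries labelled Sox9, so its mRNA was not higher there and directions below follow the labels. Counts per gene do not tell the construct from the endogenous gene. Other genes did separate the groups. *Eomes*, which encodes the intermediate progenitor factor Tbr2, had 25.2 to 44.5 CPM in Control and 6.14 to 9.75 CPM in Sox9 (log2 fold change -2.25, adjusted p = 4.87e-05), and *Olig2*, a factor of the oligodendrocyte lineage, had 0 to 2 counts in Control and 6 to 24 in Sox9 (adjusted p = 0.00371). The labels call the cells sorted neural progenitors, but in these libraries neuron markers summed to between 14352 and 19380 CPM and radial glia markers to between 306 and 1284 CPM, so transcripts of both kinds were present. These sums are not scaled by length and do not give shares of cells.

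*Neat1*, the paraspeckle scaffold, was the RNA with the largest difference. It had 5.45, 3.48 and 5.19 CPM in Control replicates 1, 2 and 4, from 57, 40 and 51 counts. In Sox9 replicates 1 to 4 it had 25.5, 12.2, 22.5 and 19.3 CPM, from 186, 129, 201 and 92 counts. Every library labelled Sox9 lay above every Control library, with Sox9 replicate 2 the nearest to them. The mean was 4.70 ± 1.07 CPM (SD, n = 3) in Control and 19.9 ± 5.72 CPM (SD, n = 4) in Sox9. On the log2 scale this was a rise of 2.08 (standard error 0.29, 95% interval 1.47 to 2.69), or 4.22-fold, with an adjusted p of 2.92e-04 from edgeR's quasi-likelihood test. Whichever library was left out, it stayed between 1.90 and 2.28 and was called each time.

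The level of *Neat1* was low, so it was set beside genes at a like level. Of the 1906 genes tested within 0.5 log2 CPM of its mean, 5.77% were called higher and the median log2 fold change was -0.06. Per length the picture was another. The counts of *Neat1* were divided by the whole length of its long form, although counts per gene do not show where on it they lie. Among the 2341 genes within 0.5 on the log2 scale of its CPM per exonic kilobase, 24.0% were called higher. Their median log2 fold change was 1.09. The *Neat1* difference lay above both medians.

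Counts on genes that these cells are not known to use, chosen after the data were seen, went in the same direction. Summed over 1037 olfactory receptor genes, the density was 0.0321, 0.0223 and 0.0317 CPM per exonic kilobase in Control replicates 1, 2 and 4. It was 0.0988, 0.0739, 0.106 and 0.0904 in Sox9 replicates 1 to 4, so the groups were apart for these genes too. Taken over its whole exonic length, the density of *Neat1* was 7.51 to 8.17 times that of the receptor genes in Control. It was 7.94 to 12.4 times in Sox9, and these ranges overlapped through Sox9 replicate 2. With the receptor density subtracted, *Neat1* was at 0.145 to 0.230 CPM per exonic kilobase in Control and at 0.513 to 1.13 in Sox9, still without overlap. The part of this low-level signal in the *Neat1* difference was not tested further.

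**Figure D2:**
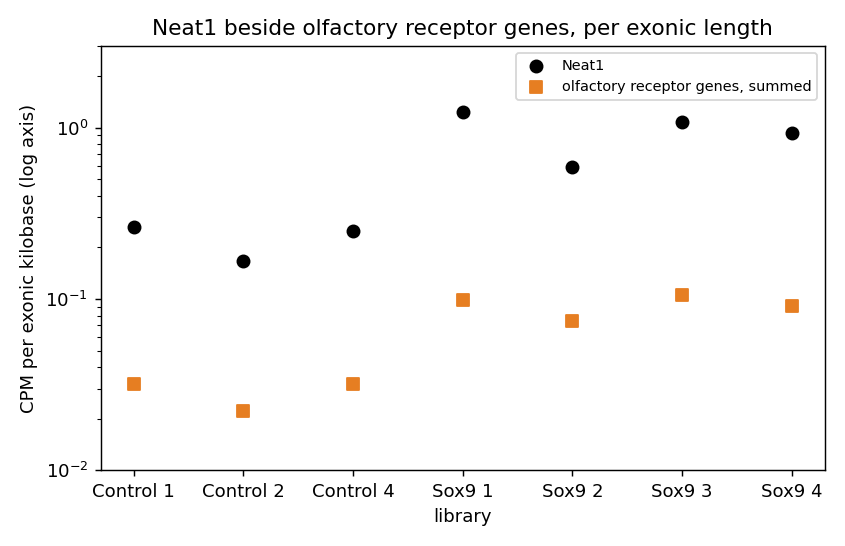
Density of counts per exonic kilobase (CPM, log axis) in each library for *Neat1* (circles) and for 1037 olfactory receptor genes summed (squares). Both are higher in the 4 libraries labelled Sox9, with *Neat1* at 0.587 to 1.23 there and at 0.167 to 0.262 in Control.

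The mRNAs of proteins that build paraspeckles were compared next. Of 15 such mRNAs tested, 0 were called higher and 0 lower in edgeR's quasi-likelihood test, with a median log2 fold change of -0.17. At an unadjusted p under 0.05, 0 were higher and 6 lower, DESeq2 called 4 lower and cyclic loess with limma 0 (1.6% of all genes). Among all genes over 4 log2 CPM, the level of most of these mRNAs, 34.2% were lower at that unadjusted p and DESeq2 called 16.9% lower. *Nono*, which encodes a core paraspeckle protein, was at 1109 CPM in Control and 834.9 CPM in Sox9 on average, with a log2 fold change of -0.41 (adjusted p = 0.0155). *Sfpq*, which encodes its partner, had a log2 fold change of -0.28 (adjusted p = 0.0886). The smallest p in the list was that of *Tardbp*, which encodes the RNA-binding protein TDP-43, at a log2 fold change of -0.44 (adjusted p = 0.0126). DESeq2 called *Nono* and *Tardbp* lower.

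*Malat1*, the speckle RNA, was the most abundant of the set and varied most among Control libraries. It had 4147, 8512 and 4649 CPM in Control replicates 1, 2 and 4. In Sox9 replicates 1 to 4 it had 6162, 4954, 3062 and 5273 CPM. Control replicate 2 was the highest of the 7 libraries and Sox9 replicate 3 the lowest, and the groups overlapped. The coefficient of variation was 41.4% in Control and 26.8% in Sox9. This gave a log2 fold change of -0.25 (standard error 0.24, 95% interval -0.75 to 0.26, adjusted p = 0.450). The 8 genes within 0.5 log2 CPM of its mean, *Malat1* among them, had a median of -0.21. The sign of the *Malat1* fold change rested on Control replicate 2, without which it was 0.14. It also turned with cyclic loess scaling (0.0627) and with FPKM (0.0109).

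The mRNAs of nuclear speckle proteins gave no call in edgeR either. Of 15 tested, 0 were called higher and 0 lower, with a median log2 fold change of -0.32, although 9 were lower at an unadjusted p under 0.05, DESeq2 called 5 lower and cyclic loess with limma 0. The shares of all genes over 4 log2 CPM given above apply to these counts too, and genes at that level that are not lncRNAs had a median of -0.22. The smallest p values were those of *Sf3b1*, a splicing factor of the U2 particle, at a log2 fold change of -0.41 (adjusted p = 0.0118), and of *Srsf3*, an SR splicing factor, at -0.45 (adjusted p = 0.0128).

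The ratio of *Neat1* to *Malat1* within a library needs no scaling between libraries. On a log2 scale it was -9.57, -11.26 and -9.81 in Control replicates 1, 2 and 4. In Sox9 replicates 1 to 4 it was -7.91, -8.67, -7.09 and -8.09, so *Neat1* was nearer to its neighbour in each library labelled Sox9. The means differed by 2.27 (exact permutation test over 35 splits, two-sided, p = 0.0286, the smallest that this design allows; adjusted over 3 ratios, 0.0857). The ratio did not pass the threshold after adjustment.

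**Figure D3:**
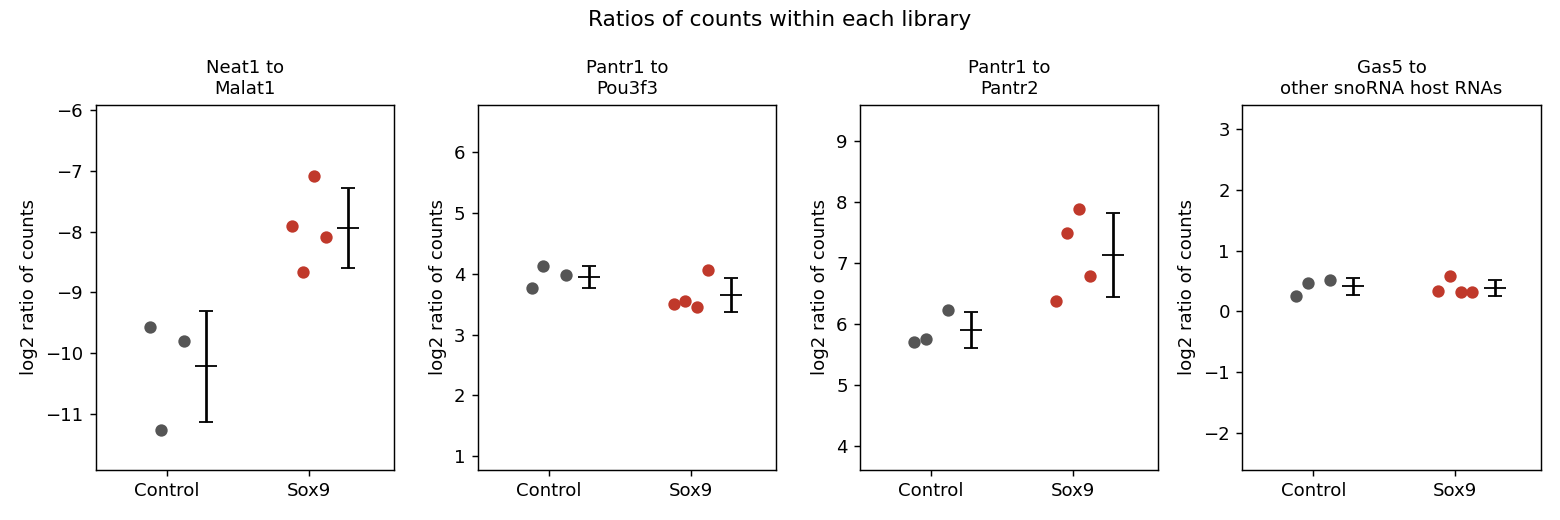
Log2 ratio of counts within each library for *Neat1* to *Malat1*, *Pantr1* to *Pou3f3*, *Pantr1* to *Pantr2* and *Gas5* to the sum of other snoRNA host RNAs, with bars at mean ± SD and axes of equal length. Control (grey) and Sox9 (red) are apart for *Neat1* to *Malat1*, by 2.27 between the means, and for *Pantr1* to *Pantr2*, by 1.24.

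*Miat*, the RNA with the TACTAAC repeats, differed by less than its spread. It had 62.5, 90.1 and 77.5 CPM in Control replicates 1, 2 and 4. It had 75.0, 60.3, 52.2 and 83.7 CPM in Sox9 replicates 1 to 4. The groups overlapped over most of their range. The difference was -0.18 on the log2 scale (standard error 0.17, 95% interval -0.55 to 0.18, adjusted p = 0.434), and its sign turned with cyclic loess scaling, to 0.0422, and with FPKM.

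The mRNAs of proteins known to bind *Miat* were compared as well, and 0 of 4 were called in either direction in edgeR. DESeq2 called 2 lower, as many as had an unadjusted p under 0.05, and cyclic loess with limma 0. Among all genes over 4 log2 CPM, the level of all 4, these shares were 16.9% for DESeq2 and 34.2% for the unadjusted p. *Srsf1*, 1 of the 4, is also in the list of nuclear speckle proteins. *Sf1*, the gene of the branch point factor, had a log2 fold change of 0.007 (adjusted p = 0.982). *Celf3*, a neural splicing regulator found in *Miat* foci, had one of 0.14 (adjusted p = 0.547). *Qk*, a splicing regulator of radial glia and oligodendrocytes, was at 71.4 ± 25.9 CPM (SD, n = 3) in Control and 40.9 ± 10.9 CPM (SD, n = 4) in Sox9, with a log2 fold change of -0.81 (adjusted p = 0.0203). An opposite-strand gene, *Gm26953*, overlaps *Miat*. Whether counting used strand is not stated, so reads of the overlap cannot be assigned for certain.

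*Pantr1*, transcribed away from the nearby gene of the neural transcription factor Pou3f3, was the nearest to the threshold on the low side. It had 853, 1249 and 1346 CPM in Control replicates 1, 2 and 4. Values of 614, 856, 741 and 854 CPM were found in Sox9 replicates 1 to 4. Control replicate 1 lay among the libraries labelled Sox9, just below the highest of them, and the other 2 Control libraries lay above all 4. Its log2 fold change of -0.59 had a standard error of 0.16 and a 95% interval of -0.92 to -0.25 (adjusted p = 0.0120), so *Pantr1* was not called. Without Control replicate 1 it was -0.78 and called (adjusted p = 0.00241), whereas without Control replicate 4 it was -0.44 (adjusted p = 0.0767). DESeq2 called it, at -0.67 (adjusted p = 0.00215), as did the fit with no filter on low counts, at -0.68 (adjusted p = 9.77e-06). Fits with replicate number as a block also called it, at -0.56 by titles and -0.63 by descriptions (adjusted p = 0.00567 and 0.00570). It came to -0.30 with cyclic loess scaling (adjusted p = 0.231) and to -0.34 with FPKM (adjusted p = 0.309), and was called in neither. None of the 105 genes tested within 0.5 log2 CPM of its mean, *Pantr1* included, had a lower log2 fold change. Their median was -0.30, and 11.4% of them were called lower.

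Some markers of progenitors were called lower, against 3.43% of all genes tested. Of 12 radial glia markers tested, 0 were called higher and 6 lower in edgeR. Their summed level was 628 to 1284 CPM in Control and 306 to 454 CPM in Sox9. DESeq2 called 1 of them higher and 8 lower (12.1% and 8.42% of all genes), and cyclic loess with limma called 4 lower (1.6%). Of 8 intermediate progenitor markers, 0 were called higher and 3 lower in edgeR, with sums of 690 to 763 and 441 to 572 CPM. DESeq2 called 3 of these lower and cyclic loess with limma 2. In each list 1 marker had a log2 fold change above 0. No marker of either list was at 0 in all libraries, and their part in the *Pantr1* values was not tested.

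*Pou3f3*, whose gene lies 926 bp from that of *Pantr1*, had a log2 fold change of -0.25 (adjusted p = 0.224). The log2 ratio of *Pantr1* to *Pou3f3* counts was 3.76 to 4.12 in Control and 3.46 to 4.07 in Sox9. The means differed by -0.31 (exact permutation test, two-sided, p = 0.171), and the groups overlapped through Sox9 replicate 4.

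*Pantr2*, the other lncRNA named for this locus, fell. It had 16.4, 23.2 and 17.9 CPM in Control replicates 1, 2 and 4 and 7.42, 4.72, 3.13 and 7.76 CPM in Sox9 replicates 1 to 4. The groups did not overlap. They differed by -1.77 on the log2 scale (standard error 0.29, adjusted p = 8.39e-04), a call that held whichever library was left out. It did not hold with FPKM, at -1.48 (adjusted p = 0.0377), or with replicate number by titles as a block, at -1.56 (adjusted p = 0.0110). The log2 ratio of *Pantr1* to *Pantr2* was 5.70 to 6.23 in Control and 6.37 to 7.89 in Sox9, a pair of groups that did not overlap. This ratio was chosen after the values were seen and was given no test.

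For *Rmst* and *Sox2ot*, values of neighbouring genes are given. *Sox2*, which lies inside the 578350 bp of *Sox2ot* and maintains neural progenitors, had 2.77 to 10.9 CPM in Control and 2.91 to 3.50 CPM in Sox9. Its log2 fold change was -1.01 (adjusted p = 0.0652), and -0.39 without Control replicate 2 (adjusted p = 0.506). *Nedd1*, a centrosomal protein gene and the nearest protein-coding gene to *Rmst*, at 519576 bp, was lower in Sox9 at a log2 fold change of -1.02 (adjusted p = 0.00538). *Nedd1* lost its call in 5 of the 7 fits that left out a library. Among the other neighbours tested, none was called.

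*Gas5*, a growth-arrest RNA known as a snoRNA host, had 531, 659 and 629 CPM in Control replicates 1, 2 and 4. In Sox9 replicates 1 to 4 it had 566, 469, 352 and 577 CPM. Sox9 replicate 3 was the lowest, and Control replicate 1 lay among the Sox9 values. They differed by -0.31 on the log2 scale (standard error 0.15, 95% interval -0.63 to 0.02, adjusted p = 0.139). This came to -0.15 without Sox9 replicate 3, -0.06 with cyclic loess scaling and -0.10 with FPKM. Genes within 0.5 log2 CPM of its mean, 255 in all, had a median of -0.29.

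SnoRNA genes within both hosts had almost no counts of their own. The annotation places 10 snoRNA genes inside *Gas5*, of which 9 had a row with 0 counts in all libraries, and 2 inside *Snhg11*, which together had 1 count. Whether snoRNA reads were counted to the hosts was not tested. *Zbtb37*, a zinc-finger gene on the opposite strand, overlaps *Gas5* and had 4.63 to 10.2 CPM, far fewer than *Gas5* in every library.

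Other snoRNA host RNAs gave a background for *Gas5*. Of 9 tested, 0 were called higher and 1 lower in edgeR and in DESeq2, and the median log2 fold change was -0.22. No other of the 9 had an unadjusted p under 0.05. The log2 ratio of *Gas5* to the sum of 10 host RNAs, these 9 and *Snhg3*, which was too low to be tested, was 0.26 to 0.51 in Control and 0.32 to 0.59 in Sox9. The means differed by -0.03 (exact permutation test, two-sided, p = 0.771). The RNA called lower was *Snhg18*, with 15.6, 33.6 and 26.1 CPM in Control replicates 1, 2 and 4 and 4.81, 3.50, 2.91 and 3.15 CPM in Sox9 replicates 1 to 4. Its groups did not overlap, and its log2 difference of -2.80 was the largest of the 9 (standard error 0.28, adjusted p = 3.99e-05). *Zfas1*, another 5′ TOP host, was at -0.28 (adjusted p = 0.280), and *Snhg1* was not analysed here.

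*Snhg11*, a neuronal snoRNA host, was measured at the edge of detection. It had 3.63, 4.34 and 3.26 CPM in Control replicates 1, 2 and 4 from 38, 50 and 32 counts. In Sox9 replicates 1 to 4 it had 8.38, 3.31, 5.48 and 4.61 CPM from 61, 35, 49 and 22 counts. Sox9 replicate 1 was well above the rest, while Sox9 replicate 2 lay among the Control libraries. Their difference was 0.53 on the log2 scale (standard error 0.35, 95% interval -0.22 to 1.29, adjusted p = 0.265), and it was 0.27 without Sox9 replicate 1 and 0.0524 with cyclic loess scaling. Genes at a like CPM had a median of 0.37, and those at a like CPM per exonic kilobase one of 1.22.

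**Figure D4:**
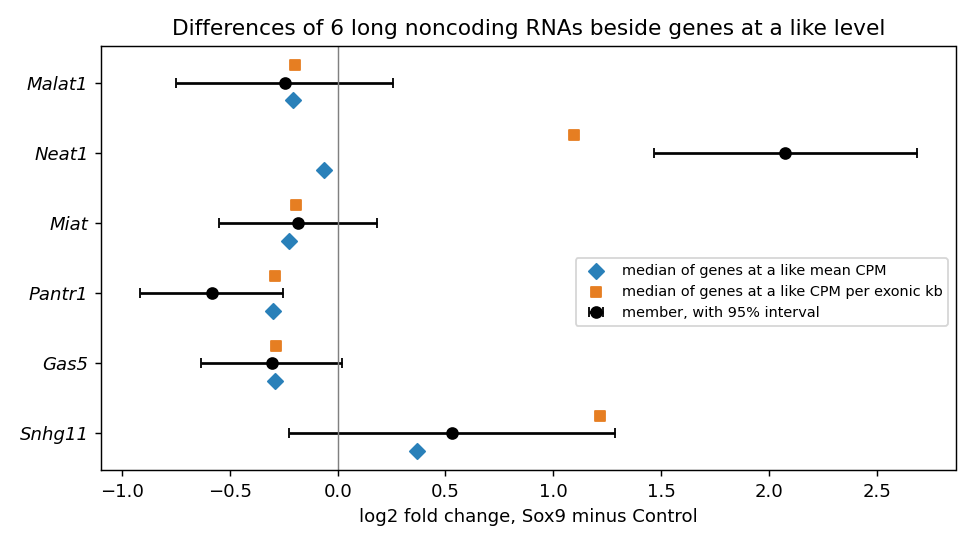
Log2 fold change (Sox9 minus Control) of each RNA with its 95% interval (black), beside the median of genes within 0.5 log2 units of its mean CPM (diamonds) and of its CPM per exonic kilobase (squares). The interval of *Neat1*, 1.47 to 2.69, lies above both medians, and those of the other 5 RNAs include both.

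Levels can be compared between RNAs only per length. In CPM per exonic kilobase, *Malat1* was at 826 ± 342 (SD, n = 3) in Control, *Pantr1* at 258 ± 58.6, *Gas5* at 161 ± 17.8, *Miat* at 8.25 ± 1.49, *Snhg11* at 0.439 ± 0.0649 and *Neat1* at 0.226 ± 0.0516. Neighbours in this order did not overlap among Control libraries. The value of *Neat1* divides by the length of its long form, though counts do not tell its forms apart. In the libraries labelled Sox9, *Neat1* was at 0.957 ± 0.276 (SD, n = 4) and *Snhg11* at 0.639 ± 0.252, and these overlapped, as did *Pantr1* and *Gas5*. The length implied by the counts and the deposited FPKM was 0.9989 to 0.9995 of the whole gene span for all 6 RNAs. Over the span, which for *Pantr1* is 23.3 times the exonic length, *Pantr1* came to 11.0 ± 2.51 CPM per kilobase in Control, below *Gas5* at 147 ± 16.3. The order of *Pantr1* and *Gas5* thus depends on the length used.

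Together the 6 RNAs took 0.691% ± 0.222 (SD, n = 3) of the counts of a Control library and 0.662% ± 0.151 (SD, n = 4) of those in the Sox9 group (p = 0.857 by a two-sided exact permutation test). *Malat1* made up most of this share. Without it, the shares were 0.168% ± 0.0325 and 0.144% ± 0.0157 (exact permutation test, two-sided, p = 0.229).

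Most lncRNA genes tested were low in abundance, and low genes of any type were shifted towards the libraries labelled Sox9. Over the 1154 lncRNA genes tested, 236 were called higher and 9 lower, and the median log2 fold change was 1.11. The shift followed the level. Among the 872 lncRNA genes with a mean under 2 log2 CPM the median was 1.43, whereas among the 75 genes over 4 log2 CPM, where *Malat1*, *Miat*, *Pantr1* and *Gas5* lie, it was -0.26, with 4 genes called higher and 5 lower. Genes that are not lncRNAs had medians of 1.36 and -0.22 at the same levels. With cyclic loess scaling, 30 lncRNA genes were called higher and 13 lower. Depth and TMM factors also differed between the groups, and their part in this shift was not tested. *Neat1*, at 3.74 log2 CPM, was among the 51 called higher of 207 lncRNA genes between these bounds.

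**Figure D5:**
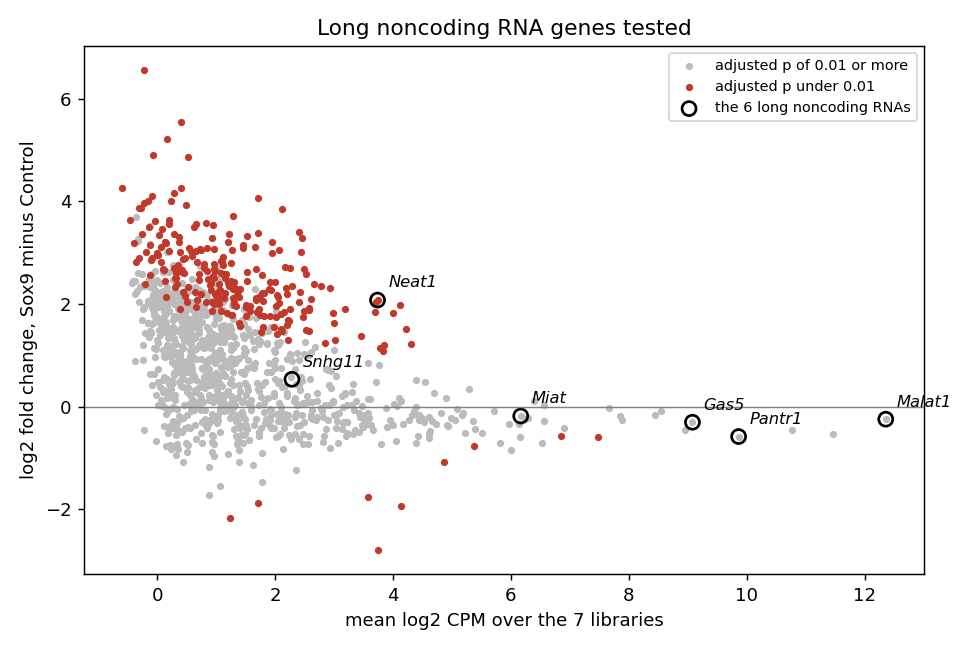
Mean log2 CPM over the 7 libraries against log2 fold change (Sox9 minus Control) for the 1154 lncRNA genes tested, with genes called in red and the 6 RNAs circled, *Snhg11* being added although it is annotated as protein-coding. Low genes are spread upwards with a median of 1.43 under 2 log2 CPM, and *Malat1*, *Pantr1* and *Gas5*, among the most abundant, lie below 0, at -0.25, -0.59 and -0.31.

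Of 23 other neural and nuclear lncRNAs tested, 3 were called higher and 2 lower, beside 20.5% and 0.78% of lncRNA genes and 11.3% and 3.43% of all genes, with a median log2 fold change of -0.26. *Tug1*, an abundant RNA of nucleus and cytoplasm, had 1797 to 2291 CPM in Control and 1421 to 1708 CPM in Sox9, without overlap, at a log2 fold change of -0.45 (adjusted p = 0.0101). *Meg3*, an imprinted RNA expressed from the maternal chromosome, was at 0.52 (adjusted p = 0.110). *Rian*, from the same imprinted domain, rose from 8.27 ± 3.00 CPM (SD, n = 3) to 18.8 ± 2.38 CPM (SD, n = 4), at a log2 fold change of 1.19 (adjusted p = 0.00377), and lost its call without Control replicate 2 or 4. *Airn*, the antisense RNA of the imprinted *Igf2r* locus, and *Six3os1*, transcribed opposite to *Six3*, rose at log2 fold changes of 1.89 (adjusted p = 0.00482) and 1.68 (adjusted p = 0.00486). Each lost its call in 3 of the 7 fits that left out a library. Besides *Pantr2*, *2610307P16Rik* fell, at a log2 fold change of -0.77 (adjusted p = 0.00343), a call lost in 4 of these fits.

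Some markers of other cell types were called higher in Sox9, as *Neat1* was. Most of these markers were under 2 log2 CPM, where 23.1% of genes that are not lncRNAs were called higher (median 1.36 on the log2 scale) and 57.2% were higher at an unadjusted p under 0.05. All 4 oligodendrocyte precursor markers tested were called higher, with sums of 0.610 to 1.39 CPM in Control and 9.50 to 22.9 CPM in Sox9. Of 7 endothelial and mural markers 2 were called higher, with sums of 6.88 to 17.5 and 23.3 to 47.6 CPM. Of 3 choroid plexus markers 2 were called higher, with sums of 1.04 to 1.42 and 8.88 to 13.3 CPM. Of 6 microglia markers 1 was called higher, and of 4 erythroid and 3 interneuron lineage markers 0, although all 4 erythroid and 1 interneuron marker were higher at an unadjusted p under 0.05. The sums overlapped for microglia markers, at 8.51 to 28.6 CPM in Control and 14.1 to 49.3 CPM in Sox9, and for erythroid markers, at 1.91 to 21.6 and 11.0 to 73.3 CPM. The interneuron lineage markers summed to at most 5.45 CPM in Control and at least 8.27 CPM in Sox9. Log2 fold changes were below 0 in 2 of the 6 microglia markers and 1 of the 7 endothelial and mural markers. With cyclic loess scaling and limma, which called 2.04% of all genes higher, 1 oligodendrocyte precursor marker was called higher and 0 of the endothelial and mural, choroid plexus and microglia markers. No list had a marker at 0 in all libraries, and their part in the *Neat1* difference was not tested.

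The mRNAs of factors of nonsense-mediated decay, the pathway that degrades *Gas5* and other host RNAs in growing cells, were the last group. Of 10 tested, 0 were called in either direction by edgeR or DESeq2, with a median log2 fold change of -0.15, while 1 was higher and 2 lower at an unadjusted p under 0.05. *Smg9*, a regulator of the Smg1 kinase, had the smallest p, at a log2 fold change of 0.58 (adjusted p = 0.0364), followed by *Upf2*, a core factor, at -0.36 (adjusted p = 0.0545).

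The protein-coding gene whose log2 CPM followed each RNA most closely over the 7 libraries was found among the 9415 such genes whose mean reached 50 counts. For *Neat1* it was *Slc26a2*, a sulfate transporter (Pearson r = 0.992), which was itself higher in Sox9 at a log2 fold change of 1.98 (adjusted p = 3.23e-04). For *Pantr1* it was *Mlc1*, a membrane protein of astroglia (r = 0.988), with a log2 fold change of -1.06 (adjusted p = 0.0263). For *Gas5* it was *Naa20*, a subunit of an N-terminal acetyltransferase (r = 0.995), for *Miat* *Arid3b*, a DNA-binding protein (r = 0.991), for *Malat1* *Zfp512b*, a zinc-finger gene (r = 0.969), and for *Snhg11* *Clpb*, a mitochondrial chaperone (r = 0.972). Such values were common, as r was at least 0.9 for 254 genes with *Neat1*, 165 with *Pantr1* and 358 with *Gas5*. It was so for 60 genes with *Miat*, 23 with *Malat1* and 10 with *Snhg11*. These are descriptions over 7 libraries that share the group difference and their depths.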

How the data were processed

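RNA-Seq of 3 Control and 4 Sox9 libraries was used, grouped by their titles, and all columns were used. The authors trimmed reads with cutadapt and aligned them to mm10 (GRCm38) with STAR (2.5.2b per the submitters' processing notes, which also list bcl2fastq 2.17.1.14). As deposited by the authors, 1 table holds raw, whole-number counts for each Ensembl gene and another holds FPKM values. The counting program and its use of strand are not given in the sources used here. Reads carried no molecular identifiers, and 12 and 15 PCR cycles were run, so precision reflects counting plus the spread between libraries. Symbols, types and sequences came from GENCODE M21, in which 36345 of 38124 identifiers were found. Total counts were 10465562 to 12907778 per Control library and 4429704 to 10520214 per Sox9 library. The TMM factors were 0.893 to 0.941 in Control and 1.01 to 1.1 in Sox9, without overlap.

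Differences in counts were estimated with edgeR 4.0.16 under R 4.3.3 (TMM, filterByExpr defaults, quasi-likelihood test, two-sided, no covariate), with Benjamini-Hochberg adjustment over 16522 genes and a threshold of 0.01. Standard errors are the size of the log2 fold change over the square root of F, and 95% intervals used edgeR's degrees of freedom. CPM are counts scaled by TMM library sizes. Sets of genes at a like level include the RNA itself. For single values, a two-sided exact permutation test over all 35 assignments of 3 and 4 libraries was used (threshold 0.05). The test was run on simulated data with known changes. Alternatives were DESeq2 1.42.0, its size factors in edgeR, cyclic loess with limma 3.58.1, no filter, a minimum of 10 counts per library, limma on log2(FPKM + 0.1) and log2(FPKM + 1), a mean FPKM of at least 1, replicate blocks and leaving out each library. Titles number the Control libraries 1, 2 and 4 and descriptions number the last of these 3. The descriptions call the libraries biological replicates, and per the methods each sort pooled cortices of embryos from several mothers. Which embryos went into which library is not given in the sources used here, and p-values measure the spread between libraries.

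The 8 RNAs and all lists were chosen with earlier results of these data known. Named genes were the RNAs, their fixed neighbours, binding proteins and 4 other lncRNAs, at most the 2 genes of smallest p of each other list, and the most similar coding gene of each RNA. *Rian*, *Airn*, *Six3os1* and *Olig2* were named after their values were seen. The olfactory receptor genes and the ratio of *Pantr1* to *Pantr2* were also added after the data were seen. A planned ratio of *Sox2ot* to *Sox2* was not computed, as *Sox2ot* was not analysed here.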

Additional observations from a re-analysis of the deposited data

Results flagged for a closer look

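A single library stood apart from the other 3 libraries labelled Sox9 in 2 ratios, where its gap to the nearest library, divided by the range of the group, was above the 95% critical value of Dixon's test. For the log2 ratio of *Pantr1* to *Pou3f3* this gap was 0.838 of the range, with Sox9 replicate 4 at 4.07 and the others at 3.46 to 3.56. For the log2 ratio of *Gas5* to the other snoRNA host RNAs it was 0.947 of the range, with Sox9 replicate 2 at 0.59 and the others at 0.32 to 0.33. In all, 11 such groups were examined, and chance sets apart about 1 in 20.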

How the results depend on the processing

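The *Neat1* difference kept its direction in all 16 alternatives that could be run, and its call in all but limma on FPKM, where it was 1.84 (pseudocount 0.1, adjusted p = 0.0217) and 0.74 (pseudocount 1, adjusted p = 0.0397). With the receptor gene density subtracted, an alternative chosen after seeing the data, the log2 ratio of its mean densities was 2.13.

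Replicate blocks gave *Pantr1* at -0.56 by titles and -0.63 by descriptions, both called (adjusted p = 0.00567 and 0.00570), so that 1 RNA counted as lower. Correlations of same-numbered libraries, as deviations from their group means, were -0.12, 0.16 and -0.04. With so few libraries these cannot settle whether the numbers pair them. The blocks changed no other call among the 6 RNAs. *Pantr2* was not called with the block by titles (-1.56, adjusted p = 0.0110). *Pantr1* was also called with DESeq2 (-0.67), with no filter (-0.68) and without Control replicate 1, and was -0.78 to -0.44 with 1 library left out, with 0 to 1 RNA called lower. It was not called at -0.45 with at least 10 counts in every library, -0.30 with cyclic loess and -0.34 and -0.31 with FPKM. *Gas5* lay between -0.41 and -0.06 and *Snhg11* between 0.0524 and 0.74 over all alternatives, never called. *Malat1* turned to 0.0109 with FPKM at a pseudocount of 0.1 (with or without the filter on mean FPKM), to 0.0108 at a pseudocount of 1 and to 0.0627 with cyclic loess, and lay between -0.45 and 0.14 with 1 library left out. *Miat* turned to 0.0402, 0.0348 and 0.0422 in the same settings.

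Of all genes, 1862 were called higher and 567 lower. The counts were 638 and 204 with at least 10 counts in every library, 337 and 264 with cyclic loess, 1034 and 353 with the block by descriptions, and 400 and 218 with that by titles. Lower calls were 1391 with DESeq2 and 1452 with no filter. Leaving out 1 library gave 827 to 1590 higher and 208 to 475 lower. Of lncRNA genes, 236 were called higher and 9 lower. The higher calls were 63, 30, 357, 111 and 35 with at least 10 counts, cyclic loess, no filter, and the blocks by descriptions and titles, and the lower calls 18, 4, 30, 5 and 3 with DESeq2, at least 10 counts, no filter and these blocks, while cyclic loess gave 13. Leaving out 1 library gave 82 to 204 and 5 to 10. Of other neural and nuclear lncRNAs, 3 were higher and 2 lower. The counts were 1 higher and 1 lower with cyclic loess, 0 and 0 with the block by titles, 1 lower with the block by descriptions and with at least 10 counts, and 5 lower with no filter. Leaving out 1 library gave 0 to 4 and 1 to 2.

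Leaving out 1 library moved the share of all 6 RNAs from -0.122 to 0.0941 percentage points (Sox9 minus Control), the log2 ratio of *Gas5* to other hosts from -0.10 to 0.0244, and that of *Neat1* to *Malat1* from 1.75 to 2.59 with an exact permutation p of 0.0667 to 0.1, where the design cannot reach 0.05. Over the whole gene span, the mean of 7 libraries was 4.43 CPM per kilobase for *Miat* (7.71 per exonic kilobase) and 8.94 for *Pantr1* (209). The cause of these changes was not tested. Depth limits *Snhg11*, at 22 to 61 counts, and *Neat1* in Control, at 40 to 57.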
